A study of Arabidopsis thaliana with 12 samples.

Results

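The moderate shared early rises are 190 of 22746 probe sets tested, each a set of short probes on the Affymetrix ATH1 array, most of them made to read 1 gene's transcripts. They were chosen by their measured change: group mean minus control mean was 1.5 or more on the log2 scale with cellobiose and with chitin, and from 1.5 to under 2.5 with oligogalacturonides (OGs). Within these bounds lay 197 probe sets, of which 7 were left out by name (PUB22, PUB23, PUB24, CML42, TET9, EXLA3 and AT4G20830). Since these differences chose the members, the sizes of change against control are given below as a description, with no test. Of the 190, 97 (51.1%) are listed with exactly 1 gene, 6 with several genes and 87 are not listed, against 59.4% with 1 gene among all tested probe sets. Only the 97 are named, and 11 of these carry a symbol other than their locus identifier.

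Roots were taken from Arabidopsis thaliana Col-0 seedlings, 7 days old, 25 min into the treatment. There were 4 groups of 3 arrays, each array called a biological replicate in the labels: cellobiose, chitin (chito-oligomers in the design text), OGs and a control with no elicitor. No dose is stated in the labels, and the submitters screened the RNA for the WRKY30 response by qRT-PCR before hybridization, a check on the response itself. Each sample pooled the roots of many seedlings grown through a mesh, and in such bulk RNA fewer cells of a type and less RNA per cell cannot be told apart.

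Plant cells sense fragments of cell walls through receptors at the cell surface. Cellobiose comes from cellulose, chito-oligomers from the walls of fungi, and OGs from the pectin of plant walls. Within minutes, such signals are known to raise cytosolic calcium, activate protein kinases and induce a first wave of transcripts for receptors, kinases, transcription factors and ubiquitin ligases, many of them parts of the signalling machinery itself.

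Values are log2 intensities that the authors normalized together. Array medians ran from 6.5 to 6.60, and arrays of 1 group had correlations of 0.986 to 0.996 with each other across probe sets. The root marker PYK10, a beta-glucosidase of root cells, lay between 13.21 and 13.85 on every array. Of 8 root markers 3 had a named probe set, and of 6 shoot markers only RCA, the activase of the photosynthetic enzyme Rubisco. RCA lay between 9.63 and 11.53, above every array's median. RCA averaged 10.14 with cellobiose, 10.84 with chitin, 10.71 with OGs and 11.11 in controls. Its part in the results was not tested.

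Across the 190 members, the median change was 2.34 log2 with cellobiose (5.06-fold), 2.55 with chitin (5.86-fold) and 1.91 with OGs (3.76-fold), while the medians of all tested probe sets were -0.03, -0.04 and -0.03. The word moderate fits the OGs response, which the rule bounded from above. With the other elicitors the range was open, from 1.51 to 5.38 log2 with cellobiose and from 1.5 to 5.64 with chitin, and 30 members with cellobiose and 48 with chitin were 3 log2 or more above control. Resting levels spanned most of the scale: control means ran from 3.58 to 11.46 with a median of 7.08, against 6.58 for all tested probe sets, and 35 members had a control mean under 5. AT1G51915 had the lowest control mean of the members (3.58), and AT1G19020 the highest of the named ones (10.72).

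**Figure D1:**
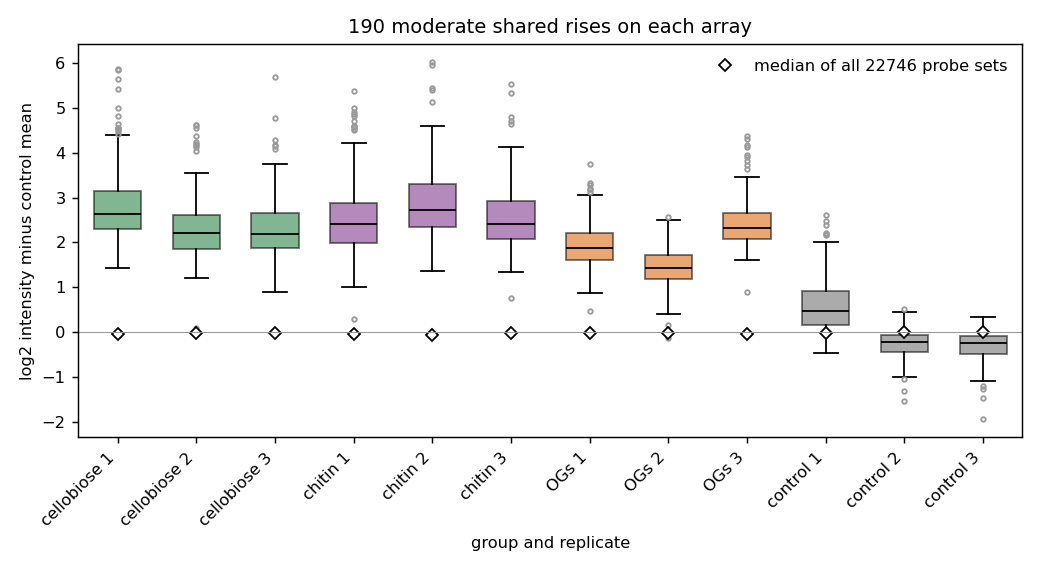
Log2 intensity minus the control mean for the 190 members on each of the 12 arrays (boxes, quartiles with whiskers to 1.5 times the interquartile range; points beyond), with the median of all tested probe sets as diamonds. The member medians lie from 2.18 to 2.63 with cellobiose, 2.41 to 2.72 with chitin and 1.44 to 2.33 with OGs, and at 0.46, -0.22 and -0.25 in controls.

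All 9 elicitor arrays lay above all 3 control arrays for 161 members, or 84.7%, where 5.1% of all tested probe sets did so. Taken singly, cellobiose arrays lay clear of the controls for 179 members (9.78% of all probe sets), chitin arrays for 184 (10.1%) and OGs arrays for 161 (8.18%). The rule used these comparisons, so nothing is read from these shares. Without control replicate 1, all 190 members were free of overlap, against 8.17% of all probe sets.

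Receptors at the cell surface were the largest of the roles assigned to named members. No roles were assigned outside the members, so whether receptors exceed their share of all genes was not tested. Roles were assigned by hand from general knowledge of the gene families, to 51 of the 97 named members, after the members were known. The 14 genes given the receptor role had changes of 1.51 to 2.92 log2 with cellobiose, 1.61 to 3.68 with chitin and 1.51 to 2.43 with OGs. Their control means had a median of 7.93. AT1G33600 encodes a protein of leucine-rich repeats, the module that many plant receptors use to bind ligands. Replicates 1, 2 and 3 of AT1G33600 read 9.12, 8.93 and 8.67 with cellobiose, 9.39, 10.28 and 9.75 with chitin and 8.34, 8.03 and 9.30 with OGs, against 6.49, 5.69 and 6.20 in controls. It was highest with chitin in every replicate, and no group of elicitor arrays overlapped the controls.

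AT1G74360 encodes a receptor kinase with leucine-rich repeats known from defence against nematodes. AT1G74360 was at 9.49, 9.47 and 9.29 with cellobiose, 8.76, 9.48 and 9.06 with chitin and 8.95, 8.84 and 9.10 with OGs, against 6.87, 6.78 and 6.63 in controls. The elicitor arrays lay between 8.76 and 9.49, clear of the controls. AT5G39020 encodes a receptor kinase with a malectin-like outer domain, a fold that can bind carbohydrates. AT5G39020 was at 9.92, 9.45 and 9.64 with cellobiose, 9.50, 9.98 and 9.32 with chitin and 8.86, 8.94 and 9.6 with OGs, against 7.40, 6.82 and 7.11 in controls. B120 is a receptor kinase of the S-domain lectin family. B120 was at 9.55, 9.26 and 9.14 with cellobiose, 8.69, 9.26 and 8.86 with chitin and 7.69, 7.67 and 8.68 with OGs, against 6.58, 6.29 and 6.32 in controls. OGs replicates 1 and 2 were the lowest elicitor arrays of B120, and OGs replicate 3 reached the level of chitin replicate 1.

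Other receptors with known ligands were among the members. AT4G08850, a receptor kinase for plant peptides of the SCOOP family, had changes of 2.11, 1.97 and 1.78 log2 with cellobiose, chitin and OGs from a high control mean of 9.82. AT5G25930, a leucine-rich repeat receptor kinase for small signalling peptides, had changes of 2.36, 2.01 and 1.99. Some members were neighbours on the chromosome in RefSeq's gene order (TAIR10.1), in 3 pairs: AT1G33590 with AT1G33600, AT1G53430 with AT1G53440, and AT1G61360 with AT1G61370. All 6 were placed by hand in the receptor role, and whether each acts as a receptor was not tested. They are 6.19% of the 97 named members, while 66.9% of all 13355 named genes have a named neighbour. Such shares depend on the size of the set, so no clustering is read from them. The partners differed in the size of change: AT1G33590 had 2.23, 2.09 and 1.78 log2 with cellobiose, chitin and OGs, and AT1G33600 2.78, 3.68 and 2.43. AT1G53430 had 1.51, 1.62 and 1.59, and AT1G53440 2.09, 2.09 and 2.14. Whether probes of such related neighbours bind each other's RNA was not tested.

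Kinases inside the cell carry the signal from receptors onwards, and 6 of the named members are of this kind. Their changes were 1.58 to 2.76 log2 with cellobiose, 1.79 to 2.84 with chitin and 1.55 to 2.19 with OGs. AT5G47070 encodes a receptor-like cytoplasmic kinase known from chitin signalling. AT5G47070 was at 8.46, 8.35 and 8.48 with cellobiose, 8.23, 8.77 and 8.52 with chitin and 7.29, 7.22 and 7.92 with OGs, against 6.44, 5.17 and 5.38 in controls. Cellobiose and chitin arrays lay together here and OGs arrays below them. AT1G67470 belongs to a family of kinase-like proteins that includes partners of immune receptors. AT1G67470 was at 9.25, 8.96 and 8.89 with cellobiose, 9.05, 9.63 and 9.18 with chitin and 9.14, 8.69 and 9.38 with OGs, against 7.12, 6.73 and 6.79 in controls. AT3G09830 encodes a cytoplasmic kinase that acts with receptor kinases in immunity. AT3G09830 was at 11.19, 10.29 and 10.22 with cellobiose, 11.14, 10.81 and 10.41 with chitin and 10.58, 9.56 and 10.16 with OGs, against 8.98, 8.31 and 7.97 in controls. Replicate 1 was the highest of its group with each elicitor and in controls. AT3G09010 is another protein kinase gene. AT3G09010 was at 7.51, 7.80 and 7.39 with cellobiose, 6.79, 7.99 and 7.37 with chitin and 6.59, 6.40 and 7.97 with OGs, against 5.40, 5.17 and 5.42 in controls. OGs replicate 3 stood apart, at 7.97 against 6.59 and 6.40 for the other OGs arrays.

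Proteins with a TIR domain, a signalling enzyme module of plant and animal immunity, made up 7 named members. All 7 had a smaller change with cellobiose than with chitin, as had 125 of the 190 members and 49.9% of all probe sets. The differences were -0.73 to -0.06 log2, and none passed the limma test of that difference at an adjusted p of 0.05. Scaling to spike-in RNAs moved the median of cellobiose minus chitin over all probe sets to 0.17 log2. That is more than the smallest of these differences, so the order in all 7 depends on the scaling. AT1G72940 encodes a TIR protein with a nucleotide-binding domain. AT1G72940 was at 9.84, 8.69 and 9.29 with cellobiose, 9.49, 10.43 and 10.10 with chitin and 8.44, 8.19 and 10.16 with OGs, against 6.26, 6.78 and 6.52 in controls. Control replicate 1 was the lowest control for this gene, unlike most members, and OGs replicate 3 lay near the chitin arrays; without it the OGs change of 2.41 log2 was 1.80. AT2G32140 encodes a short TIR protein without the ligand-sensing repeats. AT2G32140 was at 9.29, 7.05 and 7.78 with cellobiose, 9.06, 8.85 and 8.29 with chitin and 8.02, 6.92 and 7.56 with OGs, against 7.56, 4.39 and 4.09 in controls. Its control replicate 1, at 7.56, was level with OGs replicate 3 and lay above cellobiose replicate 2 and OGs replicate 2. Without that control its changes were 3.8, 4.50 and 3.26 log2 with cellobiose, chitin and OGs, against 2.69, 3.39 and 2.15 with all arrays, and without control replicate 3 they were 2.06, 2.76 and 1.52. Without cellobiose replicate 1 its cellobiose change was 2.07.

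Longer proteins of this class, with a nucleotide-binding domain and leucine-rich repeats, included AT5G22690. AT5G22690 was at 10.18, 9.70 and 9.66 with cellobiose, 9.89, 10.32 and 9.78 with chitin and 9.75, 9.26 and 9.75 with OGs, against 8.14, 6.86 and 6.93 in controls. AT1G63750 was measured at a lower control level. AT1G63750 was at 8.80, 8.07 and 8.46 with cellobiose, 8.30, 8.87 and 8.36 with chitin and 7.99, 8.32 and 8.5 with OGs, against 7.31, 5.49 and 6.02 in controls. For both genes control replicate 1 was more than 1 log2 above the other controls, and still below every elicitor array. The remaining TIR proteins, of any length, were AT5G58120, AT3G44630 and AT2G20142. They had changes of 2.03, 2.37 and 1.83, of 1.87, 2.24 and 2.08 and of 1.75, 2.36 and 1.91 log2 with cellobiose, chitin and OGs.

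Calcium and membrane proteins gave 5 named members, with control means of 7.78 to 8.99 and changes of 1.86 to 2.40 log2 with cellobiose, 2.14 to 2.53 with chitin and 1.52 to 2.00 with OGs. For all 5, the OGs change was below both others, as for 167 of the 190 members and 29.2% of all probe sets, an order that the upper bound on OGs favours. AT1G69840 encodes a membrane scaffold protein linked to the hypersensitive response. AT1G69840 was at 10.59, 9.86 and 10.09 with cellobiose, 10.13, 10.37 and 10.27 with chitin and 9.82, 9.40 and 10.10 with OGs, against 8.40, 7.28 and 7.66 in controls. AT4G34150 encodes a protein with a C2 domain, which binds membranes in the presence of calcium. AT4G34150 was at 10.60, 10.09 and 10.11 with cellobiose, 10.33, 10.75 and 10.37 with chitin and 10.18, 9.77 and 10.36 with OGs, against 9.11, 7.71 and 7.68 in controls. Both genes showed the same ladder, with control replicate 1 between the other controls and the elicitor arrays.

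AT4G39670 belongs to the glycolipid transfer proteins. AT4G39670 was at 10.53, 9.56 and 9.83 with cellobiose, 10.85, 10.68 and 10.40 with chitin and 10.00, 9.28 and 10.37 with OGs, against 8.40, 8.20 and 7.74 in controls. Cellobiose arrays lay below the chitin array of the same number in every replicate, with a mean difference of -0.67 log2. ACA.l encodes a P-type ATPase of membranes. ACA.l was at 11.09, 10.53 and 10.41 with cellobiose, 10.72, 10.87 and 10.59 with chitin and 10.36, 9.80 and 10.32 with OGs, against 9.40, 8.18 and 7.91 in controls. AT2G26190, a calmodulin-binding protein gene, had changes of 2.15, 2.14 and 1.52 and the smallest control spread of the 5, from 8.90 to 9.12.

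Regulators of transcription were few among the named members, but 2 of the 3 were among the 5 named members with the largest mean change. AT1G78410 encodes a VQ-motif protein, a class of WRKY partners. AT1G78410 was at 8.20, 8.34 and 8.57 with cellobiose, 7.09, 7.64 and 7.37 with chitin and 4.96, 6.27 and 6.35 with OGs, against 4.13, 3.44 and 3.78 in controls. Its groups were fully separated and ordered, cellobiose above chitin above OGs above controls, with changes of 4.58, 3.58 and 2.08 log2. AT1G22810 encodes a transcription factor of the AP2/ERF family. AT1G22810 was at 9.42, 7.94 and 7.11 with cellobiose, 8.69, 7.28 and 7.18 with chitin and 7.10, 4.18 and 4.67 with OGs, against 4.01, 3.52 and 3.8 in controls. Replicate 1 was the highest array in every group, and OGs replicates 2 and 3, at 4.18 and 4.67, were the lowest elicitor arrays. Without OGs replicate 1 the OGs change was 0.65 log2 instead of 1.54, and without cellobiose replicate 1 the cellobiose change was 3.75 instead of 4.38.

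AT1G19210, another AP2/ERF gene, was very uneven within groups. AT1G19210 was at 9.0, 4.53 and 5.33 with cellobiose, 9.15, 5.8 and 5.19 with chitin and 7.5, 4.60 and 7.08 with OGs, against 4.97, 4.25 and 4.09 in controls. The 9.0 of cellobiose replicate 1 and the 9.15 of chitin replicate 1 stood beside values of 4.53 to 5.8 in the other arrays of those groups. Its change with cellobiose was 1.85 log2, and 0.49 without cellobiose replicate 1; with chitin it was 2.28, and 1.06 without chitin replicate 1. Leaving out a low array moved these the other way, to 2.73 without cellobiose replicate 2, 3.04 without chitin replicate 3 and, from 1.96 with OGs, 2.86 without OGs replicate 2.

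Ubiquitin ligases tag proteins for removal, and several are known to restrain immune signalling. Besides the U-box genes left out by name, 4 named members belong here, with changes of 2.46 to 3.13 log2 with cellobiose, 2.14 to 2.74 with chitin and 1.65 to 1.93 with OGs. The OGs change was below both others for all 4, an order that the rule favours and that 167 of the 190 members share. RING1 encodes a plasma membrane ligase that promotes cell death. RING1 was at 7.30, 6.87 and 6.65 with cellobiose, 6.77, 7.34 and 7.27 with chitin and 6.13, 6.10 and 6.72 with OGs, against 5.08, 3.94 and 4.15 in controls. AT5G09800 encodes a U-box ligase. AT5G09800 was at 8.04, 7.82 and 7.97 with cellobiose, 6.74, 7.22 and 7.06 with chitin and 6.52, 6.01 and 7.09 with OGs, against 4.90, 4.74 and 4.82 in controls. All 3 cellobiose arrays lay above all 3 chitin arrays for AT5G09800. AT5G67340 encodes a U-box ligase with armadillo repeats. AT5G67340 was at 7.84, 8.30 and 7.45 with cellobiose, 7.2, 7.44 and 7.42 with chitin and 6.91, 6.27 and 7.61 with OGs, against 5.52, 4.98 and 5.12 in controls. AT4G36550 is a related U-box gene with tightly grouped controls. AT4G36550 was at 9.74, 9.28 and 9.23 with cellobiose, 9.03, 9.55 and 9.36 with chitin and 8.83, 8.26 and 8.72 with OGs, against 6.98, 6.90 and 6.99 in controls. Its controls lay between 6.90 and 6.99, and its lowest elicitor array was at 8.26.

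Enzymes of metabolism numbered 8 among the named members, with changes of 1.76 to 2.67 log2 with cellobiose, 1.53 to 3.33 with chitin and 1.5 to 1.83 with OGs. AT2G39400 encodes a lipase-like hydrolase of the monoacylglycerol lipase family. AT2G39400 was at 9.47, 9.48 and 9.13 with cellobiose, 10.08, 10.72 and 10.32 with chitin and 8.79, 8.05 and 9.58 with OGs, against 6.78, 6.97 and 7.37 in controls. Chitin arrays were the highest. HEMA2 encodes a glutamyl-tRNA reductase, which opens the path to haem and chlorophyll. HEMA2 was at 11.06, 10.37 and 10.31 with cellobiose, 10.71, 11.07 and 10.58 with chitin and 10.16, 9.30 and 10.38 with OGs, against 8.83, 7.83 and 7.71 in controls. Cellobiose and chitin arrays of HEMA2 overlapped, and OGs replicate 2 was the lowest elicitor array.

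Enzymes of sulfur metabolism were among them. SUFE2 activates the release of sulfur for iron-sulfur clusters. SUFE2 was at 10.44, 10.00 and 10.38 with cellobiose, 10.16, 11.07 and 10.21 with chitin and 8.61, 9.19 and 9.98 with OGs, against 7.79, 7.73 and 7.73 in controls. Its controls lay between 7.73 and 7.79. APS3 encodes an ATP sulfurylase, the first step of sulfate assimilation. APS3 was at 10.26, 9.22 and 8.61 with cellobiose, 9.46, 9.08 and 8.45 with chitin and 9.07, 7.21 and 8.38 with OGs, against 7.68, 6.20 and 6.20 in controls. OGs replicate 2 of APS3, at 7.21, lay below control replicate 1, at 7.68. OPCL1 activates a precursor of jasmonate, the wound hormone, for its last shortening steps. OPCL1 was at 11.55, 10.56 and 10.16 with cellobiose, 11.42, 10.43 and 10.30 with chitin and 10.97, 9.6 and 10.48 with OGs, against 10.47, 7.87 and 7.87 in controls. Control replicate 1 of OPCL1 lay above 4 of the 9 elicitor arrays and 2.60 log2 above the mean of the other controls. Without it the changes of OPCL1 were 2.89, 2.85 and 2.48 log2 with cellobiose, chitin and OGs, against 2.02, 1.98 and 1.61 with all arrays.

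Cell wall genes were represented by 4 named members. AT2G43620 belongs to the chitinase family, enzymes that cut fungal walls. AT2G43620 was at 7.56, 8.28 and 6.09 with cellobiose, 7.56, 7.54 and 8.0 with chitin and 7.42, 5.38 and 9.36 with OGs, against 5.11, 4.97 and 4.86 in controls. It was the most uneven of the 4: OGs values ran from 5.38 to 9.36, and the OGs change of 2.40 log2 was 1.42 without OGs replicate 3 and 3.41 without OGs replicate 2. Its cellobiose change of 2.33 was 2.94 without cellobiose replicate 3. XTH18 encodes an enzyme that cuts and rejoins xyloglucan. XTH18 was at 11.82, 11.30 and 11.24 with cellobiose, 11.69, 11.63 and 11.47 with chitin and 11.58, 10.31 and 11.52 with OGs, against 10.49, 9.02 and 8.59 in controls. CSLC04 makes the glucan backbone of xyloglucan. CSLC04 was at 11.46, 11.03 and 10.96 with cellobiose, 11.07, 11.56 and 11.28 with chitin and 10.75, 10.16 and 11.17 with OGs, against 9.89, 8.71 and 8.68 in controls. AT1G02810 belongs to the pectin methylesterases. AT1G02810 was at 10.84, 10.24 and 10.51 with cellobiose, 10.57, 10.61 and 10.11 with chitin and 10.35, 10.04 and 10.58 with OGs, against 9.89, 8.44 and 8.01 in controls. In all 4 genes control replicate 1 was the highest control, by 1.2 to 1.68 log2 over the mean of the others for XTH18, CSLC04 and AT1G02810.

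The remaining 46 named members have no role assigned here or one outside these groups. AT2G23270 had the largest mean change of the named members. AT2G23270 was at 10.51, 9.29 and 10.36 with cellobiose, 9.53, 10.62 and 10.01 with chitin and 6.21, 6.33 and 8.97 with OGs, against 4.72, 4.87 and 4.44 in controls. It was 41.7-fold above control with cellobiose and 41.6-fold with chitin but 5.64-fold with OGs, just under the upper bound, and the OGs change of 2.49 log2 was 1.59 without OGs replicate 3. AT1G35210 had its largest mean change with chitin. AT1G35210 was at 9.26, 7.08 and 8.79 with cellobiose, 9.22, 10.15 and 9.50 with chitin and 6.67, 6.43 and 7.99 with OGs, against 5.43, 4.61 and 4.10 in controls. Its cellobiose change of 3.67 log2 was 4.31 without cellobiose replicate 2. AT3G28580 encodes an AAA-type ATPase. AT3G28580 was at 7.91, 8.03 and 7.45 with cellobiose, 6.84, 7.80 and 7.54 with chitin and 6.39, 5.38 and 7.18 with OGs, against 3.96, 3.88 and 3.66 in controls. AT2G18210 was already high in 1 control. AT2G18210 was at 12.72, 11.28 and 11.73 with cellobiose, 12.44, 11.81 and 11.36 with chitin and 11.48, 9.36 and 10.74 with OGs, against 10.60, 6.89 and 7.14 in controls. Control replicate 1 of AT2G18210, at 10.60, exceeded OGs replicate 2, at 9.36. Its changes of 3.70, 3.66 and 2.32 log2 with cellobiose, chitin and OGs were 4.89, 4.85 and 3.51 without control replicate 1, and 3.04, 3.00 and 1.66 without control replicate 2.

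**Figure D2:**
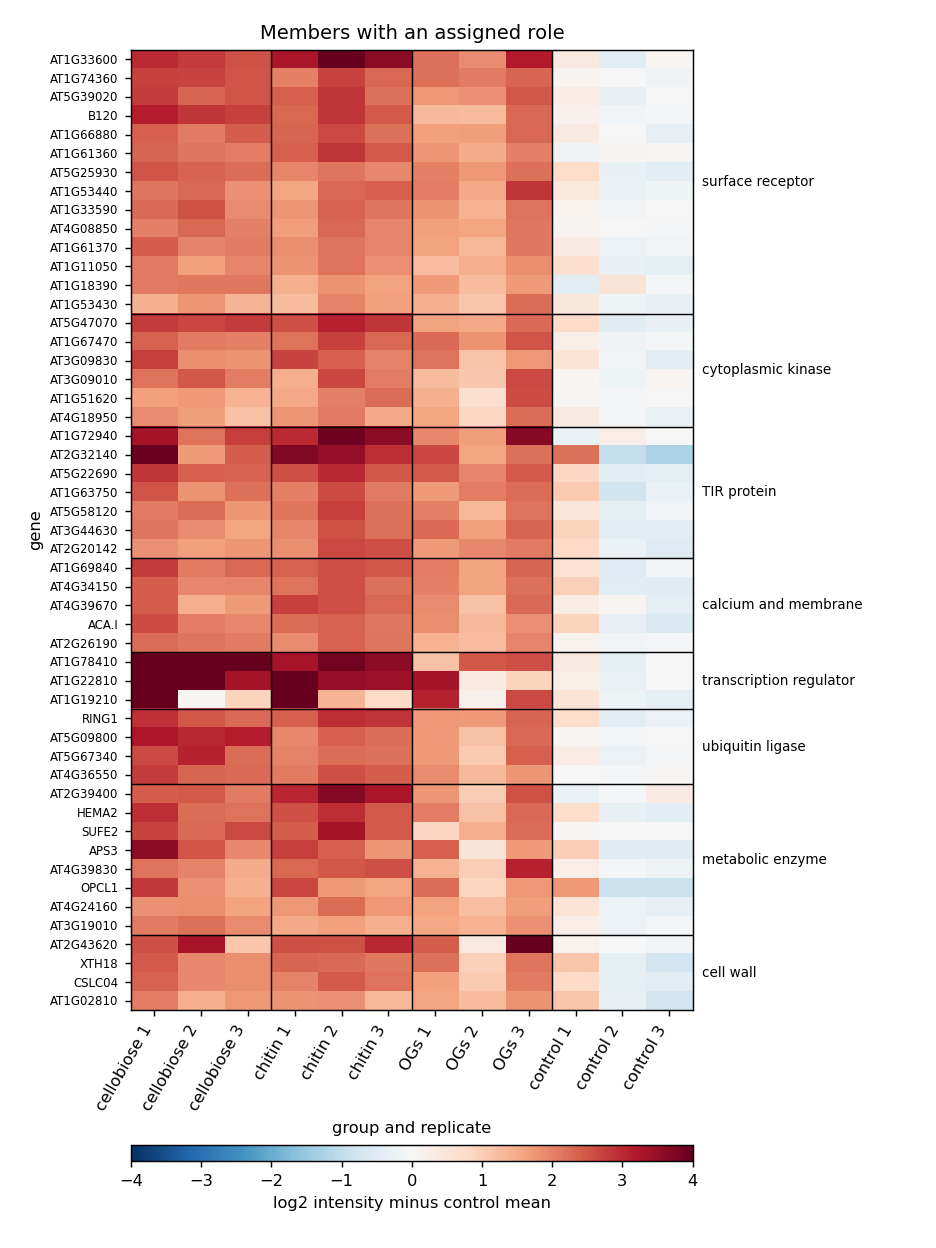
Log2 intensity minus the control mean (colour, from -4 to 4) of the 51 members with an assigned role (rows, by role) on the 12 arrays (columns). Elicitor columns are red with few pale cells, among them AT1G19210 in cellobiose replicate 2 and OGs replicate 2, and the column of control replicate 1 is redder than those of control replicates 2 and 3.

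The bounds cut through a continuous range. Just inside were AT4G24160 (OGs 1.5 log2), AT2G23270 (OGs 2.49), AT1G53430 (cellobiose 1.51) and AT1G11050 (OGs 1.51). Just outside were AT3G15760 (OGs 1.49), AT4G28460 (OGs 2.51), AT1G72900 (OGs 2.53) and AT5G42830 (cellobiose 1.47).

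Cellobiose and chitin were compared directly, since the rule set no order between them. The change was larger with chitin for 125 of 190 members, against 49.9% of all tested probe sets, and the median of cellobiose minus chitin was -0.14 log2. This lean depends on the scaling: after scaling to spike-in RNAs, the median of that difference over all probe sets was 0.17. Of the 190 members 0 passed (limma, adjusted p under 0.05; 0.0176% of all probe sets did), while 29 members, 15.3%, had an unadjusted p under 0.05, against 5.68% of all. Of these 29, 9 were higher and 20 lower with cellobiose. Ordinary t statistics without pooled variances gave 0 calls among all 22746 probe sets, so their 0 among the members says nothing particular about them. With ordinary t statistics, 15 members, 7.89%, had an unadjusted p under 0.05, against 5.44% of all, a smaller excess. Without cellobiose replicate 1 (0.0176% of all called), or without OGs replicate 3 (0.0352%), 1 member passed. The 95% intervals had a median half-width of 0.70 log2 for members and 0.25 for all probe sets, and lay within 1 log2 either side of 0 for 100 members, while for the other 90 they reached past it.

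**Figure D3:**
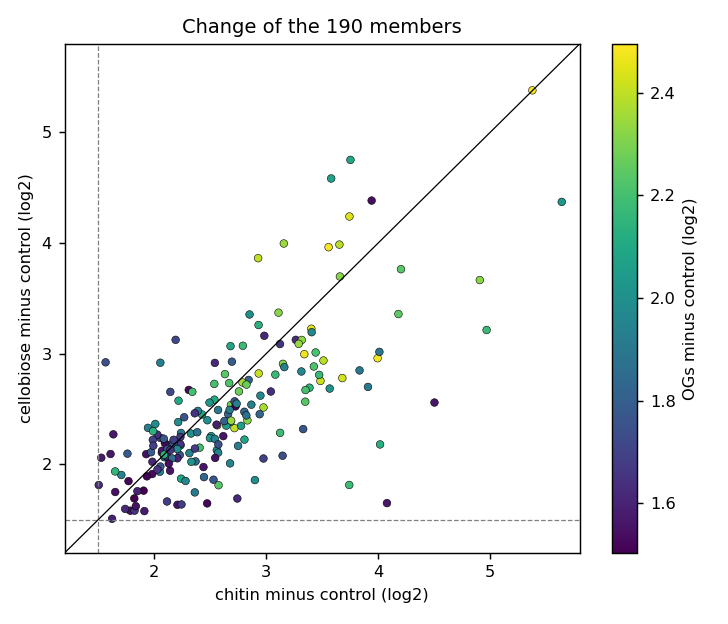
Change with cellobiose (vertical) against change with chitin (horizontal), both log2 against control, for the 190 members, coloured by the change with OGs. Dashed lines mark the lower bound of 1.5, the solid line equal change; 125 members lie on the chitin side of it.

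The named members with the smallest p leaned both ways. AT5G09800, the U-box gene, had a difference of 0.93 log2 in favour of cellobiose (95% interval 0.45 to 1.42; limma adjusted p = 0.554). AT2G37810, a gene for a cysteine- and histidine-rich protein, was lower with cellobiose (difference -1.95, interval -3.07 to -0.82; adjusted p = 0.693). AT3G19010, a 2-oxoglutarate-dependent oxygenase gene, differed by 0.53 (interval 0.18 to 0.89) and AT1G78410 by 1.00 (interval 0.29 to 1.71), both higher with cellobiose. AT5G05190 (-0.83, interval -1.42 to -0.23) and AT2G39400 (-1.01, interval -1.75 to -0.28) were lower with cellobiose. A member without a listed gene came nearest to a call and had 5.97, 4.89 and 4.93 with cellobiose and 7.46, 7.93 and 7.70 with chitin, a difference of -2.43 log2 (adjusted p = 0.0909, and 0.0314 with no replicate block).

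OGs changes were the smallest of the 3 for 167 members (29.2% of all probe sets), which the upper bound on OGs favours. The median OGs change was 80.1% of the cellobiose change and 75.4% of the chitin change on the log2 scale. Among named members OGs gave the largest change for only AT1G22890 and AT1G53440. AT1G22890 had changes of 1.94, 1.65 and 2.15 log2 with cellobiose, chitin and OGs. No test is given for OGs against the other elicitors.

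The members varied together between replicates, a property that the rule, built on group means, did not use. Probe sets with larger or smaller OGs changes, under the same bounds for the other elicitors, deviated on the same arrays, as given below. Control replicate 1 was the highest control for 161 of 190 members (33.3% of all probe sets). Likewise OGs replicate 3 was the highest OGs array for 152 (32.1% of all), chitin replicate 2 the highest chitin array for 145 (35.7%) and cellobiose replicate 1 the highest cellobiose array for 144 (29.0%). OGs replicate 2 was the lowest of its group for 163 members (29.3% of all). For 82 members (43.2%) the 4 maxima fell on this same set of arrays, as they did for 2.59% of all tested probe sets. The set was picked from the members' own most frequent maxima, so nothing is read from this share.

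**Figure D4:**
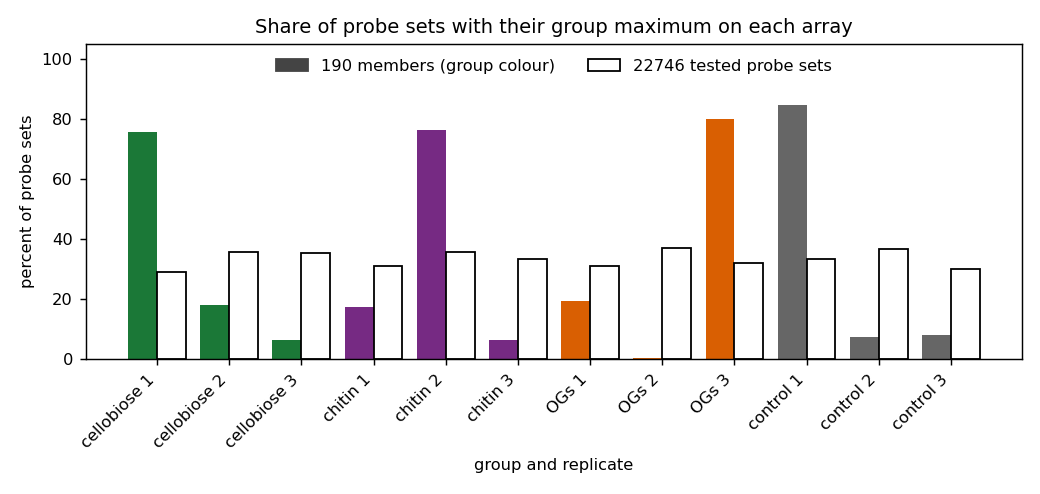
Percent of the 190 members (filled bars, group colours) and of the 22746 tested probe sets (open bars) that have the highest value of their group on each array. Member bars reach 75.8% for cellobiose replicate 1, 76.3% for chitin replicate 2, 80.0% for OGs replicate 3 and 84.7% for control replicate 1, while open bars lie between 29.0% and 37.1%.

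The spread within groups was also wider than usual. The median SD over replicates was 0.29 log2 with cellobiose, 0.30 with chitin, 0.51 with OGs and 0.42 in controls for members, against 0.12, 0.13, 0.12 and 0.12 for all probe sets (n = 3 arrays each). It was wider again in OGs (0.70) and controls (0.67) for the 108 probe sets with OGs changes of 2.5 or more under the same bounds for the other elicitors. For the 112 with OGs changes under 1.5 it was 0.38 in OGs and 0.27 in controls. Median deviations of the members from the group mean were 0.46 log2 for control replicate 1, 0.42 for OGs replicate 3 and -0.44 for OGs replicate 2. They were 0.25 for cellobiose replicate 1 and 0.25 for chitin replicate 2. On these arrays, in the same order, the 108 probe sets had 0.75, 0.67, -0.62, 0.24 and 0.29. The 112 had 0.29, 0.30, -0.32, 0.21 and 0.23, so the pattern was not particular to the members.

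The root hair markers EXPA7 and EXPA18, expansin genes, were low on some of the same arrays. EXPA7 was at 9.28 in cellobiose replicate 1 (10.37 and 9.89 in the other cellobiose arrays), 9.21 in OGs replicate 3 (9.97 and 10.17) and 9.17 in control replicate 1 (9.91 and 9.95). With chitin it was lowest in replicate 1, at 8.87, where the members were highest in replicate 2. EXPA18 was likewise lowest there in cellobiose, OGs and control arrays, at 9.33, 9.14 and 9.31 in the arrays where most members were highest. The spike-in RNAs added to each sample averaged 7.28 in control replicate 1, against 6.80 in each of the other controls. The part of either in the members' spread was not tested.

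In control replicate 1, 76 members (40%) were at least 1 log2 above the mean of the other controls, against 1.95% of all probe sets, and 23 (12.1%) at least 2 log2, against 0.501%. A gap of at least 1 log2 was found in 54.6% of the 108 probe sets with OGs changes of 2.5 or more and in 20.5% of the 112 with OGs changes under 1.5. The named genes among these 23 were AT2G25460, AT2G18210, AT2G32140, AT5G65300, AT5G17350, OPCL1, AT4G24380 and AR781. AT2G25460 had the widest gap of the named members, 3.71 log2. AT2G25460 was at 10.60, 8.48 and 9.26 with cellobiose, 10.60, 10.09 and 9.39 with chitin and 9.94, 8.46 and 9.19 with OGs, against 9.75, 6.27 and 5.82 in controls. Its control replicate 1, at 9.75, lay above cellobiose replicates 2 and 3, chitin replicate 3 and OGs replicates 2 and 3. Its changes of 2.17, 2.75 and 1.92 log2 with cellobiose, chitin and OGs were 3.40, 3.98 and 3.16 without control replicate 1, and 1.44, 2.02 and 1.19 without control replicate 3. AT5G65300 had a gap of 3.27. AT5G65300 was at 10.22, 8.69 and 8.85 with cellobiose, 10.02, 9.43 and 8.67 with chitin and 9.86, 8.64 and 9.35 with OGs, against 9.51, 6.34 and 6.13 in controls. Its control replicate 1 was above 6 of the 9 elicitor arrays. Its changes of 1.93, 2.05 and 1.96 log2 were 3.02, 3.14 and 3.05 without control replicate 1, and 1.33, 1.45 and 1.36 without control replicate 3. AT5G17350, with a gap of 2.83, was at 9.53 in control replicate 1, and at 6.73 and 6.67 in the others. AT4G24380, a hydrolase gene, was at 9.6, 7.22 and 6.91 in the 3 controls, and AR781 had a gap of 2.34. Without control replicate 1 the cellobiose changes were 3.78 log2 for AT5G17350 (2.84 with all arrays), 3.30 for AT4G24380 (2.45) and 3.87 for AR781 (3.09).

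Other members showed no such gap. AT1G18390, a receptor kinase gene, ran the opposite way. AT1G18390 was at 8.73, 8.75 and 8.76 with cellobiose, 8.07, 8.46 and 8.25 with chitin and 8.37, 7.92 and 8.35 with OGs, against 6.24, 7.16 and 6.57 in controls. Control replicate 1 was its lowest control, and its cellobiose arrays lay between 8.73 and 8.76. AT2G23270, pEARLI4, AT3G18250 and AT4G36550, picked after their values were seen, had gaps between -0.02 and 0.06 log2.

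**Figure D5:**
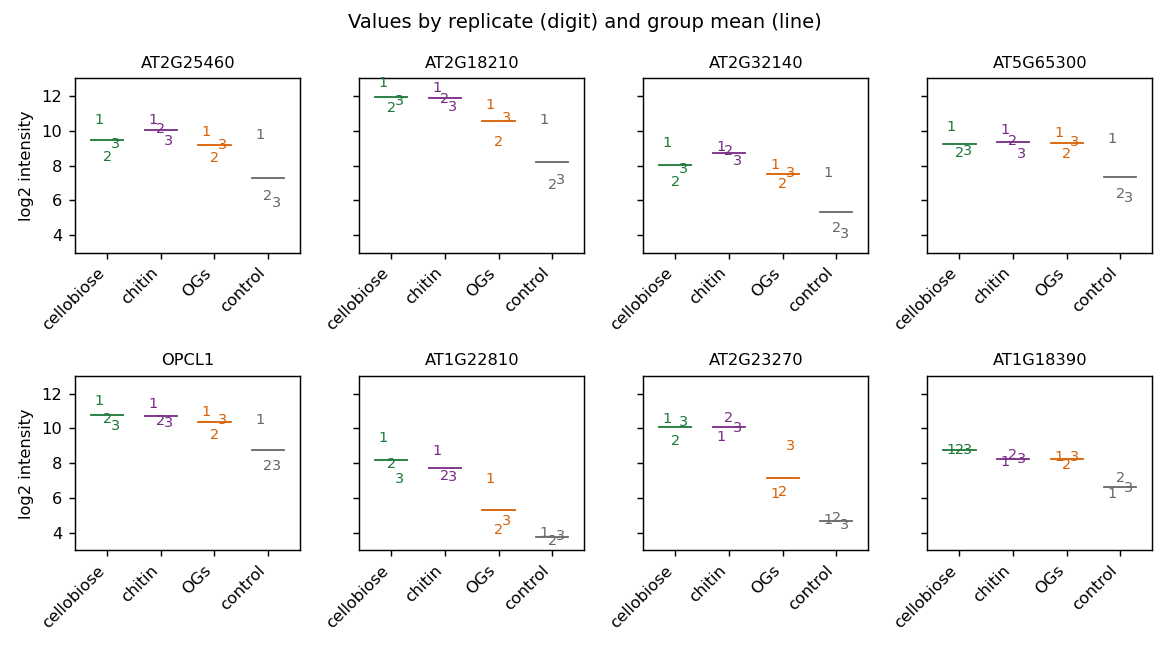
Log2 intensity of 8 members by group (horizontal), with each array drawn as its replicate number and the group mean as a line. In AT2G25460, AT2G18210, AT2G32140, AT5G65300 and OPCL1 control replicate 1 stands among the elicitor arrays, while AT1G22810, AT2G23270 and AT1G18390 have all controls below every elicitor array.

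A replicate number shared across groups was tested as well, because the authors took ratios within replicate pairs. Replicate 1 was the highest array in all 4 groups for 23 members (12.1%), against 3.72% of all probe sets. The named ones were OPCL1, APS3, XTH18, AR781, AT3G09830, AT1G22810, AT1G19210, AT1G23710, AT2G18210, AT2G25460, AT2G32140, AT2G32190, AT4G24380 and AT5G65300. The replicate number passed (limma F test, adjusted p under 0.05) for 4 members, or 2.11%, against 0.897% of all probe sets, and none of the 4 has a listed gene. At an unadjusted p under 0.05 there were 29 members (15.3%), against 8.27% of all. The clearest had 9.64, 7.19 and 7.18 with cellobiose, 9.21, 7.07 and 6.95 with chitin, 8.38, 5.47 and 7.01 with OGs, and 6.01, 3.78 and 4.11 in controls (adjusted p = 0.00221). Among named genes AT3G09830 (adjusted p = 0.0792) and OPCL1 (0.0994) came closest. The count of 4 was 9 without OGs replicate 3 (1.08% of all probe sets called). It was 1 without cellobiose replicate 1, chitin replicate 3 or OGs replicate 1 (0.492% to 0.69% of all). It was 2 without cellobiose replicate 3, chitin replicates 1 or 2, or control replicate 2 (0.488% to 0.796%). Ordinary F statistics gave 0 (0.176%).

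Pair by pair, all 190 members were above control in all 3 pairs with cellobiose (16.8% of all probe sets) and with chitin (17.6%), and 188 with OGs (15.4%). A change of 1.5 or more in each of the 3 pairs held for 147 members with cellobiose (1.39% of all), 130 with chitin (1.42%) and 44 with OGs (0.607%). The rule chose members by the means of these pairs and bounded OGs from above, so nothing is read from these counts. The median of the members was lowest in pair 1 with each elicitor, at 2.11, 1.78 and 1.32 log2 with cellobiose, chitin and OGs, the pair that holds control replicate 1. In pair 2 the medians were 2.5, 3.04 and 1.72, and in pair 3 they were 2.5, 2.8 and 2.62.

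Known early elicitor genes could be looked up only in part. In 8 lists of 119 genes (WRKY and ERF factors, MAP kinases, receptors, calcium, jasmonate, secretion and other early genes) only 10 had a named probe set, and 0 of these 10 are members. Whether any of the 93 unnamed members reads another listed gene was not tested. WRKY53 and WRKY22, transcription factors of the early response, lay past the upper bound with OGs (5.27 and 2.68 log2), and the rule also leaves out WRKY22 by name. WRKY6 fell short with cellobiose and OGs (1.41, 1.69 and 0.99 log2 with cellobiose, chitin and OGs). BIK1, a kinase next to many receptors, fell short with all 3 (1.40, 1.17 and 1.21). The other 6 were far below the bounds: ORA47 had 0.42, 0.47 and -0.41 log2 with cellobiose, chitin and OGs, FER 0.30, 0.27 and 0.30, and CML41 0.14, 0.39 and 0.27, while EFR, AT1G56145 and AT1G76640 lay between -0.11 and 0.15.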

How the data were processed

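RNA of 12 root samples was hybridized to 1-colour Affymetrix ATH1 arrays, labelled as 3 biological replicates of each treatment. The deposited values are log2 intensities that the authors made with the GCRMA algorithm, per the series' design text, which corrects background, normalizes between arrays and summarizes probes. The submitters' processing notes name Affymetrix Expression Console. Its between-array step holds the bulk of probe sets level, so changes are relative to it.

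The members and gene lists were chosen with earlier results of these data known. The 64 Affymetrix control probe sets were set apart, leaving 22746. Group means gave the members. limma 3.58.1 (R 4.3.3) was fitted to all 12 arrays with treatment and replicate number as a block, because the design text takes ratios per sample pair, with Benjamini-Hochberg adjustment over all 22746 probe sets. It tested cellobiose minus chitin and the replicate number (F with 2 degrees of freedom). The code was tested on simulated data. Precision rests on 3 arrays a group.

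Genes were named from the platform annotation where 1 gene is listed, and all 97 matched RefSeq's TAIR10.1 genes. Values in every array are given for up to 4 members of each role with the largest mean change, and for others singled out in the text after their values were seen. The planned role words matched only 5 named members, so roles were assigned by hand. Promoter motifs were planned but not analysed here. Alternatives left out single arrays, rescaled to 24 spike-in probe sets, filtered low values or unlisted probe sets, and changed thresholds, summaries, the block and the variance prior.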

Additional observations from a re-analysis of the deposited data

How the results depend on the processing

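Of the 190 members, 97 were left with only probe sets of 1 gene. Leaving out 1 array gave 163 to 234 members by the rule, the highest without control replicate 1, where 142 were shared with the 190. The 163 without OGs replicate 3 shared 134 with them. Group medians gave 202 members, with 130 shared, and spike-in scaling 258, with 164 shared. The count differing between cellobiose and chitin, 0, was 1 with no replicate block (0.022% of all probe sets called). It was 18 after spike-in scaling (11 lower and 7 higher with cellobiose; 0.699% of all). Without 1 array it was 0 to 1 (0.00879% to 0.0352% of all). After spike-in scaling limma gave every probe set the same variance, and ordinary statistics, added after seeing the data, gave 0 (0.0% of all). That scaling moved the median of all probe sets to 0.34, 0.17 and 0.20 log2 with cellobiose, chitin and OGs. The count with a replicate-number effect, 4, was 2 with trend and robust priors (0.923% of all called) and 0 with ordinary statistics (0.176%). It was 41 after spike-in scaling (2.58% of all) and 0 with both (0.00879%). With only probe sets of 1 gene it was 0 (0.777% of those), and without 1 array 1 to 9 (0.488% to 1.08% of all). The median cellobiose change, 2.34, was 2.72 after spike-in scaling and 2.21 to 2.64 without 1 array. The median changes kept their direction, as did cellobiose minus chitin in the named members with the smallest p. Spike-in scaling moved the median of cellobiose minus chitin over all probe sets to 0.17 log2. That is larger in size than the members' median of -0.14 before scaling. The order of cellobiose and chitin in members with small differences therefore depends on the scaling. The cause of these shifts was not tested. Without control replicate 1, 11 of the 97 named members had folds that moved over 1.5 times with each elicitor, and without OGs replicate 3, 8 did with OGs. The replicate numbers did not clearly pair the samples: 11 of 18 same-numbered pairs had deviations correlated over 0.1, and 4 of 12 arrays correlated best with their own number. With 3 arrays a group, the count of members free of overlap, 161, ranged from 161 to 190 without 1 array (added after seeing the data). The share of all probe sets ranged from 5.24% to 8.17%. With the members held fixed, leaving out an array can only keep or raise this count, so its lower end shows no robustness.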
